A study of Mus musculus with 2 samples.

Results

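Genes that mark platelets and their parent cells, the megakaryocytes, were followed in RNA of the mouse embryonic heart. The 9 genes were Pf4 and Ppbp, which encode platelet chemokines, Gp1ba, Gp1bb, Gp5 and Gp9, which encode the subunits of the GPIb-IX-V receptor, Itga2b and Itgb3, which encode the 2 chains of the platelet integrin, and Vwf, which encodes von Willebrand factor. They were chosen by symbol, with their levels and their ratio between libraries already known, from 43346 Ensembl genes in the deposited tables. All 9 symbols matched 1 row each. The hearts came from B6NCrl embryos at embryonic day 12.5, with male and female embryos pooled, and no treatment or genetic change is named. Dissected tissue gave 10 ng of RNA longer than 200 nt to each of 2 libraries, replicates 1 and 2 of 1 group. The labels call them biological replicates from separate tissue samples that carry the same donor label, so the spread between them may be partly technical. Whether blood was washed out of the hearts is not given in the labels. Estimated reads on mouse genes numbered 33480066 in replicate 1 and 30665239 in replicate 2. With 2 libraries of 1 group no test between conditions exists, and a two-sided exact sign test could not go below p = 0.5, so all values are descriptions.

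Megakaryocytes are large polyploid blood cells that shed platelets into the circulation. In the mouse embryo they arise in the yolk sac and the fetal liver. A platelet sticks to a wounded vessel when GPIb-IX-V grips von Willebrand factor, then spreads and aggregates when the integrin alpha IIb beta 3 binds fibrinogen, and releases chemokines from its alpha granules. Several of these genes are also used elsewhere: Vwf by endothelium, Itgb3 with another alpha chain by many adherent cells, Itga2b by early blood progenitors and Pf4 by some macrophages. In bulk tissue, more cells of a type and more RNA per cell cannot be told apart.

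Upstream sequences are shown for 4 of the genes: the chemokine genes Pf4 and Ppbp, which lie side by side, and Gp1ba and Gp5, the lowest members and partners in 1 receptor. RefSeq promoters on GRCm38.p6 matched 7 of the 9 symbols. The lines below run 5′ to 3′ over the 250 bases before the annotated start: Pf4 at chr5:90772185-90772434 (plus strand), Ppbp at chr5:90768268-90768517 (plus strand), Gp1ba at chr11:70638872-70639121 (plus strand) and Gp5 at chr16:30310782-30311031 (minus strand). Capitals mark 3 motifs found on either strand: the GATA words AGATAA (or with a last G, AGATAG) and TGATAA (or with a last G, TGATAG), the ETS word GGAAGT, and the TATA word TATAAA. A word on the opposite strand appears as its reverse complement.
Pf4: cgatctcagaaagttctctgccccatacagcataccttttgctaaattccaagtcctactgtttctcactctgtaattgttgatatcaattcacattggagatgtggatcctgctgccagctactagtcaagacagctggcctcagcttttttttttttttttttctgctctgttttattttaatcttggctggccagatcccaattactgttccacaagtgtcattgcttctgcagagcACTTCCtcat
Ppbp: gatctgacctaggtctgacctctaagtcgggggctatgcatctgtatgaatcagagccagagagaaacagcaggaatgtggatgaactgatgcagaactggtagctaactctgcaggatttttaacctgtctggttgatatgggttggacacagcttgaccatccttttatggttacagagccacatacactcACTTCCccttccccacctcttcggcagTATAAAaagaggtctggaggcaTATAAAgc
Gp1ba: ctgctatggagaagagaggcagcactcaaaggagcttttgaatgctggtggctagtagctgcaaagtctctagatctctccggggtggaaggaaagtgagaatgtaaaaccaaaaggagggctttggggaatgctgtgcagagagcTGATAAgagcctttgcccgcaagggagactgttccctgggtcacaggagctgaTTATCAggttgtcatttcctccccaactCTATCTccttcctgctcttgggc
Gp5: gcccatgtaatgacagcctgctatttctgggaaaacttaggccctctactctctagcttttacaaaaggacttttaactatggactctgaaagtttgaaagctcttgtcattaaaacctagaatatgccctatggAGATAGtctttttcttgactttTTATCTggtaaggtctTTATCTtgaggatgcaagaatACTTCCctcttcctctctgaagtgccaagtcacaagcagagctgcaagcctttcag
In Gp1ba there were 3 GATA words, starting 104, 51 and 23 bases before the start. Gp5 also held 3, starting 115, 93 and 77 bases before it, and an ETS word at 56. No marked words overlapped. Of the 7 promoters, 3 held a GATA word (Gp1ba, Gp1bb and Gp5), against 26.5% of 32851 RefSeq promoters of the same length. An ETS word was present in 5 of 7 (Gp5, Gp9, Itga2b, Pf4 and Ppbp), against 19.7% of all. The Itga2b window overlaps an exon of Itga2b in GENCODE and the Gp1bb window an exon of Sept5, so these windows are partly transcribed sequence and are not shown. TATAAA was found in Ppbp alone, with 2 copies, against 12.4% of all. These matches are letters in a window and do not show binding.

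All 9 genes reached 1 TPM (a share of transcripts, scaled by length) in each library, as did 57.5% of 21461 nuclear protein-coding genes. Their mean levels spanned 41.3-fold, from 1.5 to 61.8 TPM, with a median of 8.76 TPM. Pf4 stood apart at the top, and Gp5 and Gp1ba at the bottom.

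**Figure D1:**
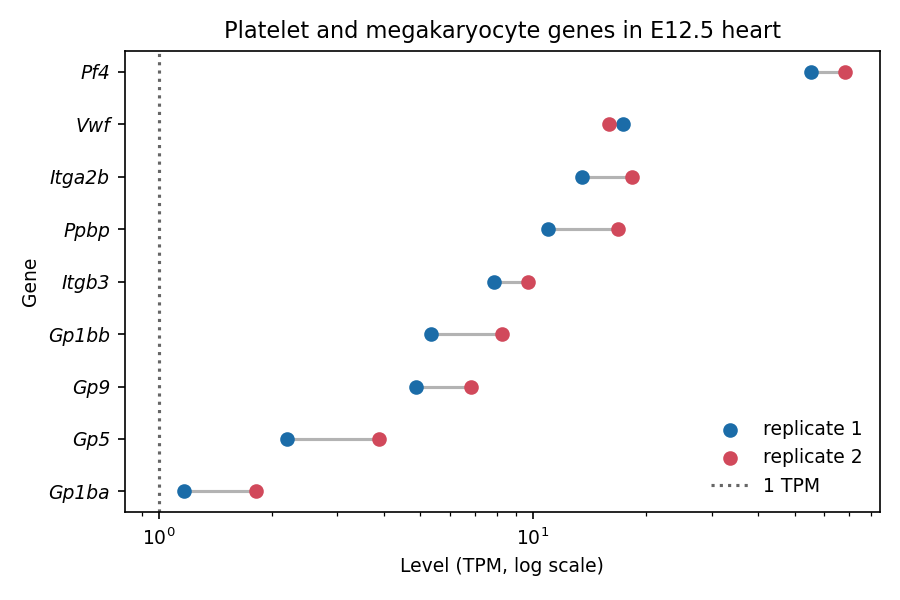
Level of each gene in TPM on a log axis, with 1 point for each library and a dotted line at 1 TPM. Pf4 is highest at 55.2 and 68.4 TPM, Gp1ba is lowest at 1.17 and 1.82 TPM, and Vwf is the only one of the 9 whose replicate 2 point lies to the left.

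The chemokine genes sit next to each other on chromosome 5, with 2371 bases between the end of Ppbp and the start of Pf4. Pf4 (ENSMUSG00000029373.6; mm10 chromosome 5, 90772435 to 90773383), platelet factor 4, is a heparin-binding chemokine of the alpha granule. It stood at 55.2 TPM in replicate 1 and 68.4 TPM in replicate 2, from 635 and 711 reads, a mean of 61.8 ± 9.31 TPM (SD, n = 2). That level exceeded those of 81.5% of detected nuclear protein-coding genes. Ppbp (ENSMUSG00000029372.6; chromosome 5, 90768518 to 90770063), whose product is cut into a neutrophil-attracting chemokine, had 11 and 16.9 TPM from 254 and 353 reads. In TPM, Pf4 was 5.04-fold above Ppbp in replicate 1 and 4.06-fold above it in replicate 2. Each gene had 1 annotated transcript, so neither value depends on how reads were divided between isoforms.

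GPIb-IX-V was expressed at low level, with unequal subunits. Gp1bb, the beta chain that is disulphide-linked to GPIb alpha, led with 5.35 and 8.27 TPM. Gp9 (chromosome 6, 87778072 to 87779768), the small subunit needed to bring the complex to the surface, followed with 4.87 and 6.84 TPM from 82 and 104 reads. The ranges of Gp1bb and Gp9 overlapped. Gp5 (chromosome 16, 30307685 to 30310779), a subunit that thrombin cleaves, had 2.2 and 3.88 TPM from 109 and 174 reads. Gp1ba (chromosome 11, 70639122 to 70642036), the alpha chain that binds von Willebrand factor, was lowest with 1.17 and 1.82 TPM from 72 and 100 reads. Gp1ba lay below its 3 partners in both libraries, and its range did not overlap theirs. The excess over Gp1ba, in TPM, was 4.57- and 4.54-fold for Gp1bb, 4.16- and 3.76-fold for Gp9, and 1.88- and 2.13-fold for Gp5.

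For the platelet integrin, the alpha chain gene exceeded the beta chain gene in TPM over all transcripts, but not clearly in coding transcripts. Itga2b (chromosome 11, 102453297 to 102470122), which encodes alpha IIb, stood at 13.5 and 18.4 TPM from 722 and 882 reads. Itgb3 (chromosome 11, 104608000 to 104670476), which encodes beta 3, stood at 7.84 and 9.67 TPM from 1053 and 1174 reads. The ratio of Itga2b to Itgb3 in TPM was 1.72 and 1.9, and their ranges did not overlap. In the leading coding transcript alone, Itga2b had 8.18 and 11.1 TPM and Itgb3 7.84 and 9.67 TPM, and these ranges overlapped. Itgav, whose product is the other partner of beta 3, had 77.4 and 87.4 TPM, 5.25 ± 0.695-fold above Itga2b. Vwf (chromosome 6, 125546774 to 125686679) had the most reads of the 9, 1791 and 1750, and 17.4 and 16 TPM. In replicate 1 the order was Pf4, Vwf, Itga2b, Ppbp, Itgb3, Gp1bb, Gp9, Gp5, Gp1ba. In replicate 2 Vwf moved to the fourth place, behind Itga2b and Ppbp. Over the 2 libraries, the ranges of neighbours overlapped for Vwf and Itga2b, Itga2b and Ppbp, Itgb3 and Gp1bb, and Gp1bb and Gp9, so those orders are not separated by the spread. Pf4 over Vwf, Ppbp over Itgb3, Gp9 over Gp5 and Gp5 over Gp1ba did not overlap.

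Between the libraries, 8 of the 9 genes were at least 1.2-fold higher in replicate 2, in CPM (gene reads scaled to the library's total), and none was 1.2-fold lower. Among 15154 genes with a mean of 20 or more reads, which all 9 passed, 8.06% were that much higher and 7.6% that much lower. Within the genes' own range of 86 to 1770 reads the share higher was 5.28%. This difference was among the values known when the genes were chosen, so the counts describe them and support nothing further. The median ratio was 1.33 (log2 0.42), against a log2 median of 0.0037 over all 15154 genes. Summed over the 9, CPM went from 145 to 177, a ratio of 1.22 (95% exact binomial interval 1.17 to 1.27). These intervals cover counting error alone; the labels name no molecular identifiers, so PCR duplicates cannot be told from separate molecules.

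The largest ratio was that of Gp5, 1.74 (interval 1.36 to 2.24). Ppbp followed at 1.52 (1.29 to 1.79) and Gp1ba at 1.52 (1.11 to 2.08). Gp9 stood at 1.38 (1.03 to 1.87), Itga2b at 1.33 (1.21 to 1.47) and Gp1bb at 1.33 (1.07 to 1.67). The smallest past 1.2-fold were Pf4 at 1.22 (1.1 to 1.36) and Itgb3 at 1.22 (1.12 to 1.32). Vwf had a ratio of 1.07 (0.998 to 1.14). It was the only one of the 9 whose interval reached 1. Against genes with a mean read count within 2-fold of their own, Pf4, Ppbp, Gp5, Itga2b and Itgb3 lay above the 95th percentile of ratios. Gp1ba, Gp1bb, Gp9 and Vwf lay between the 5th and 95th percentiles, and the first 3 of these have among the fewest reads. Scaled by spike-in reads instead, 7 genes passed 1.2-fold, since Itgb3 came to 0.26 on the log2 scale.

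**Figure D2:**
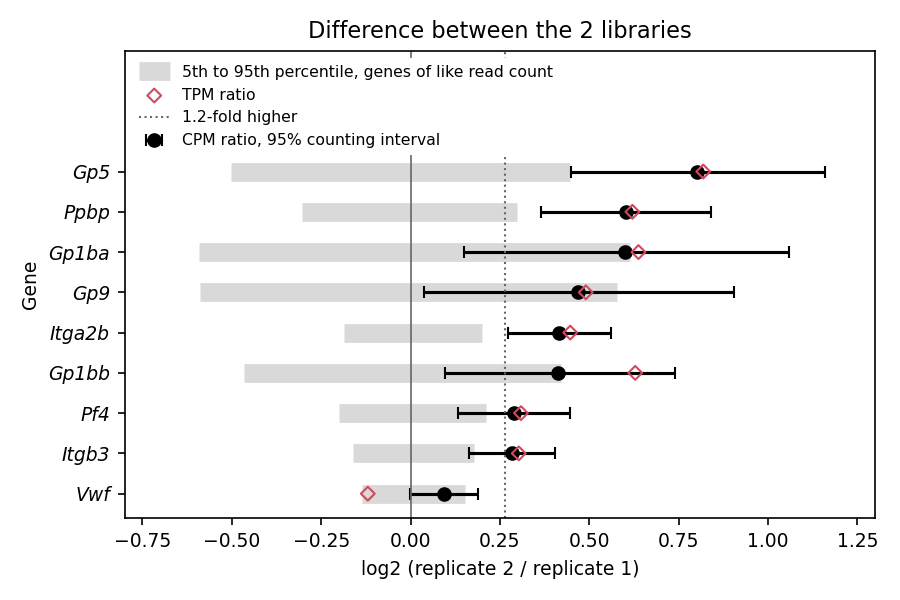
Log2 ratio of replicate 2 to replicate 1 for each gene: black points are CPM ratios with 95% counting intervals, open diamonds are TPM ratios, and grey bars span the 5th to 95th percentiles of genes of like read count. Points run from 0.09 for Vwf to 0.80 for Gp5, and the TPM diamond of Vwf lies on the other side of 0, at -0.12.

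The direction of Vwf depended on the unit. Its CPM was 53.5 and 57.1, while its TPM was lower in replicate 2, with a TPM ratio of 0.92. TPM divides reads by the effective length, which the deposited tables put at 4370 and 5132 bases for Vwf, because its reads were divided differently among its 12 transcripts. The 8834-base coding transcript ENSMUST00000112254.3 held 21% and 38.4% of the gene's TPM. A second long transcript of 8817 bases, ENSMUST00000001995.9, held 22.3% and 13.8%. The deposited posterior SD was 373 and 367 reads for the first, so the split between these long forms was poorly resolved. Together they took 1548 and 1555 reads, or 86.4% and 88.8% of the gene's reads. A 456-base processed transcript with 44 and 31.9 reads took 30.1% and 26.2% of the gene's TPM.

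Gp1bb (chromosome 16, 18620317 to 18622403) overlaps other genes over most of its span. The septin gene Sept5 (chromosome 16, 18620502 to 18629954) runs on the same strand and overlaps it over 1902 bases, and the gene model Gm49601 overlaps it in GENCODE M21 but was not analysed here. Gp1bb was assigned 148 and 180.6 reads and Sept5 243 and 217 reads, with a posterior SD of 5.02 and 3.91 reads for both. The CPM ratio of Sept5 was -0.03 on the log2 scale, against 0.41 for Gp1bb. Within Gp1bb, the 645-base transcript held 48% and 60.4% of TPM and the 1847-base transcript 52% and 39.6%. Its effective length was therefore 1170 and 1022 bases, which makes the TPM ratio 1.55 where the CPM ratio was 1.33. Itga2b was steadier: its 3437-base coding transcript held 60.6% of TPM in both libraries, and the rest was spread over processed transcripts, led by 1 of 623 bases at 16.7% and 18.9%. That coding transcript took 645 of 722 reads and 794 of 882 reads. Itgb3, Gp5 and Gp9 each had all TPM in 1 coding transcript, and Gp1ba had 100% and 86.3% in its 2710-base transcript. The deposited posterior means put that Gp1ba share at 83.1% and 79.6%, so its difference between libraries was not resolved.

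**Figure D3:**
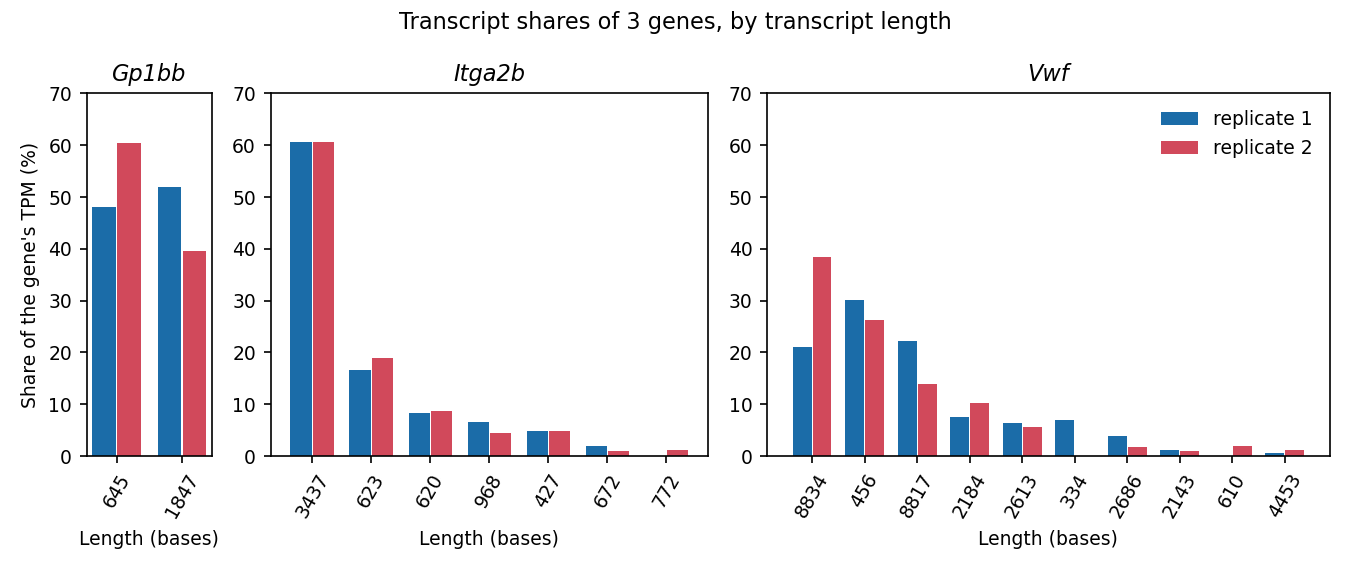
Share of each gene's TPM held by its transcripts, labelled by length in bases, for transcripts with at least 1% in either library; bars are the 2 libraries. Itga2b keeps 60.6% in 1 transcript in both, while the leading transcript goes from 52% at 1847 bases to 60.4% at 645 bases in Gp1bb, and the 8834-base form of Vwf from 21% to 38.4%.

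Other genes of the platelet lineage were taken from lists that leave out the 9. The lists were chosen with earlier results of these data known, so their counts are descriptions and support nothing further. In the list of platelet receptors and signalling, 20 of 28 genes reached 1 TPM in each library, and of 27 with enough reads 11 were at least 1.2-fold higher in replicate 2, none lower and 16 in between, against 8.06% higher and 7.6% lower over all genes. The share called is larger at low read counts: it was 20.6% higher among genes with read counts like that of Gp1ba. Many of the 11 had few reads, and the counting interval lay above 1 for 5 of them, among them Gp6, Cd226, Treml1 and Mpig6b. These 4, and the genes named in the same way below, were picked after their values were seen. Gp6, the platelet collagen receptor, had 0.52 and 1.2 TPM from 13 and 27 reads, a CPM ratio of 2.27 (interval 1.13 to 4.79). Treml1, an alpha granule receptor, had 3.43 and 4.65 TPM, and Mpig6b, an inhibitory receptor of megakaryocytes, 0.96 and 1.63 TPM. The 4 highest of the list were Itgb1 at 388 ± 2.89 TPM, the thrombin receptor gene F2r at 155 ± 3.83 TPM, Itga6 at 109.8 ± 8.8 TPM and Cd9 at 60 ± 0.29 TPM. Their CPM ratios ran from 0.98 for Cd9 to 1.1 for Itga6 (interval 1.07 to 1.14). The median log2 ratio of the list was 0.19.

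Among 27 genes of granules, enzymes and cytoskeleton, 24 were detected, and of 25 with enough reads 9 were higher, none lower and 16 in between, against the same 8.06% and 7.6% over all genes, with a median log2 ratio of 0.1. Intervals lay above 1 for 6 of the 9: F5, Srgn, Tubb1, Plek, Bin2 and Alox12. Tubb1, the beta tubulin of the platelet's marginal band, had 6.15 and 11.2 TPM, a ratio of 1.8 (1.5 to 2.17). Alox12, the platelet lipoxygenase, had 3.13 and 6.38 TPM, a ratio of 1.99 (1.68 to 2.36). The highest of the list were Flna at 184 ± 1.46 TPM, Clu at 144 ± 7.84 TPM, Tln1 at 97.1 ± 3.3 TPM and Thbs1 at 92.8 ± 3.79 TPM, with CPM ratios from 0.982 to 1.09. Mmrn1, a granule protein that binds factor V, had 2.47 and 2.88 TPM. Selp, the P-selectin of alpha granules, had 1 and 3.66 reads, too few for a ratio.

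Of 17 transcription factors of the lineage, all detected, none was 1.2-fold higher, 3 were lower and 14 in between, with a median log2 ratio of -0.02. Over all genes 8.06% were higher and 7.6% lower, and the difference from the receptor and granule lists was not tested. The 3 were Gata1, Gfi1b and Tal1. Gata1 stood at 5.26 and 3.56 TPM (CPM ratio 0.671, interval 0.534 to 0.839). Gfi1b had 4.61 and 3.19 TPM (0.753, 0.586 to 0.965) and Tal1 6.71 and 5.55 TPM (0.81, 0.715 to 0.917). Red cell precursors use factors of this list as well, and whether that use bears on the ratios was not tested. Nfe2, needed for platelet release, stood at 9.92 and 10.1 TPM, Fli1 at 16.5 and 16.3 TPM and Runx1 at 1.22 and 1.03 TPM. Fli1 also serves endothelium. The highest of the list were Ldb1 at 70.3 ± 0.728 TPM and Meis1 at 64.5 ± 3.01 TPM, then Cbfb at 54.5 ± 1.33 TPM and Mafg at 24 ± 2.15 TPM.

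Ligands and receptors of the members were unevenly represented. In the chemokine cluster around Pf4 and Ppbp, the genes Cxcl2, Cxcl3, Cxcl5 and Cxcl15 had 0 reads in both libraries, which allows up to 0.0896 CPM in replicate 1 and 0.0978 CPM in replicate 2 by counting error alone. Cxcl1 had 0 and 2 reads. Cxcr2, the receptor of the Ppbp product, had 6 and 3 reads, and Cxcr3, a receptor reported for platelet factor 4, had 3 and 0 reads. Ackr1, an atypical receptor that binds many chemokines, was the 1 detected gene of the list, with 3.69 and 3.14 TPM. Thpo, which encodes thrombopoietin, a growth factor of megakaryocytes, had 6 and 3 reads. Among the integrin ligands, fibronectin, Fn1, stood at 352 ± 17 TPM in near-equal amounts. The fibrinogen genes were low and were lower in replicate 2. Fga had 3.21 and 0.55 TPM, Fgb 1.82 and 0.32 TPM and Fgg 2.57 and 0.26 TPM. Of 10 genes with enough reads in this list of partners and ligands, 5 were lower, against 7.6% over all genes, and none higher. The others of the 5 were Vtn, with 2.99 and 0.37 TPM, and F8. For F8 the CPM ratio was 0.75 (interval 0.576 to 0.973). Its TPM was 1.41 and 1.58, so its direction depended on the unit. The hepatocyte genes described next were lower in replicate 2 as well, and a link was not tested.

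Markers of some other cells moved between the same libraries, and their part in the ratios of the 9 genes was not tested. Over all genes with enough reads, 8.06% were at least 1.2-fold higher and 7.6% that much lower, shares to set beside each list. The share higher was larger at low read counts, as given above. Of 18 hepatocyte genes 9 were detected, and of 16 with enough reads 14 were lower in replicate 2 and 1 (Cps1) higher, with a summed CPM of 311 and 87.5. Among them Afp had 99.3 and 18.2 TPM and Apoa2 37.9 and 8.69 TPM, and no gene of the list was at 0 in both. For 20 erythroid genes, all detected, the summed CPM was 27381 and 24393, a ratio of 0.891, with 5 lower and none higher, against 7.6% lower over all genes. Klf1, the red cell factor, had 14.7 and 9.82 TPM, and Hbb-y 27205 and 24177 TPM. Of 17 macrophage genes with enough reads 4 were lower, 3 of them with an interval below 1, and none higher. Their median log2 ratio was -0.08, and the summed CPM of the whole list of 18 was 166 and 160. Csf1r, the defining receptor, had 6.87 and 6.52 TPM. Of 4 other leukocyte genes with enough reads 3 were lower, and Cd3e and Ms4a1 had 0 reads in both. Of 7 blood progenitor genes with enough reads 1 was lower, Myb (CPM ratio 0.685, interval 0.493 to 0.946), and none higher. The list summed to 369 and 373 CPM. Most of that sum came from Cd34 (119 and 124 CPM), Mycn (110 and 108 CPM) and Mecom (88.1 and 93.5 CPM). Endothelial and endocardial genes were all 19 detected, with 1 lower (Sox17), none higher and a summed CPM of 1760 and 1819, a ratio of 1.03. The 10 cardiomyocyte genes that define the labelled tissue were all detected, none past 1.2-fold, with a summed CPM ratio of 1. The contrast in direction between the platelet genes and the erythroid, other leukocyte and hepatocyte lists was not tested.

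**Figure D4:**
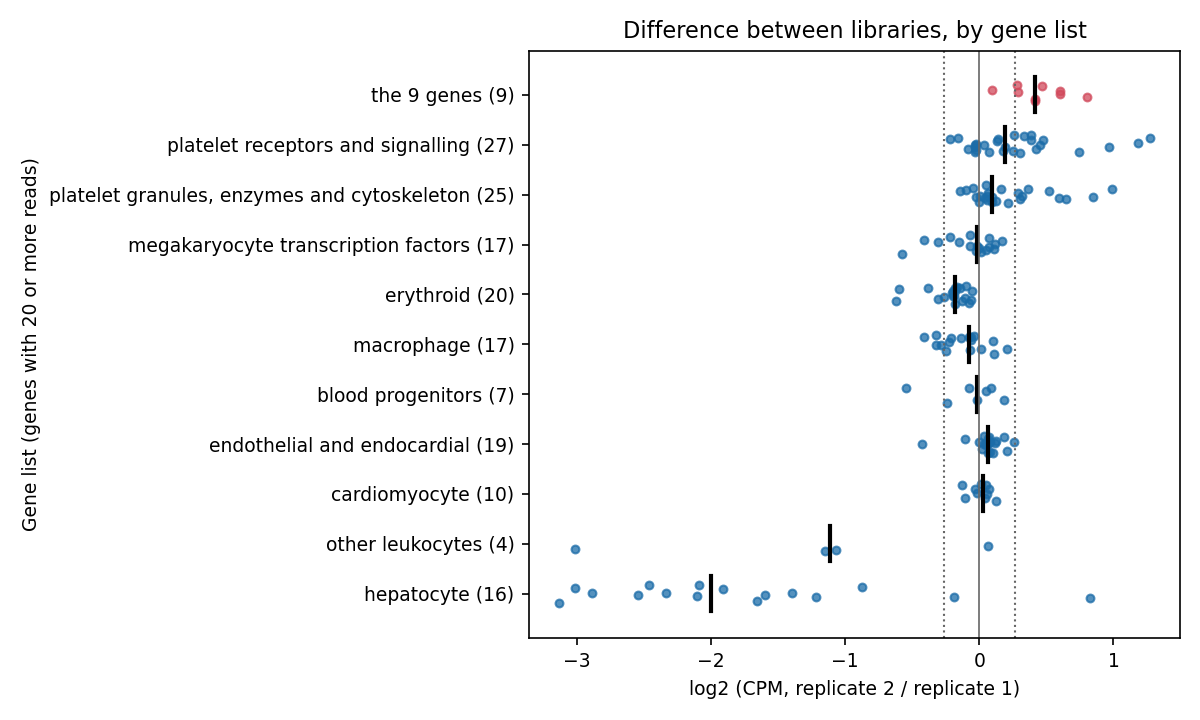
Log2 CPM ratio of replicate 2 to replicate 1 for genes with a mean of 20 or more reads, by list, with the number of genes in brackets. The chemokine cluster and receptors, and the integrin partners and ligands, are not shown. Black bars are list medians and dotted lines mark 1.2-fold. The median is 0.42 for the 9 genes, 0.19 for platelet receptors, -0.18 for erythroid genes, 0.03 for cardiomyocyte genes and -2.00 for hepatocyte genes.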

How the data were processed

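Total RNA-seq of embryonic heart was deposited as 1 gene table and 1 transcript table per library. Alignment was to mm10 and quantification used GENCODE M4, per the deposited file notes; neither those notes nor the labels name the software. The authors' expected counts are estimated reads, not whole where reads are shared. The deposited TPM values divide reads by effective length, and the deposited FPKM values scale by length and library size. The deposited percent values give each transcript's share of its gene; shares here were recomputed from TPM. Symbols came from GENCODE M21 (same build; 42462 of 43346 genes matched).

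CPM was taken over Ensembl gene reads. Ratios were called past 1.2-fold at a mean of 20 or more reads, and genes were called detected at 1 TPM in both libraries. Intervals are exact binomial (Clopper-Pearson, 95%) on rounded counts. The squared difference between the libraries, over its counting variance, had a mean of 4.62 and a median of 1.2 over 15154 genes. Counting error alone would give a mean near 1 and a median below 1. The libraries thus differed by more than counting error, and the intervals understate that spread. These values do not tell separate tissue from separate library preparations. Alternatives used edgeR 4.0.16 TMM factors and DESeq2 1.42.0 size factors (R 4.3.3, counts rounded); the rest used matplotlib 3.10.9, scipy 1.17.1, pandas 2.3.3 and numpy 2.4.6 under Python 3.11.15. The code for ratios and intervals was checked on simulated counts that hold counting error alone. That check leaves out the wider spread between these libraries, so it does not show how well the intervals cover here. The members, lists, thresholds and alternatives were chosen with earlier results of these data known. Named besides the members are up to 4 of the highest genes of each list and direct partners of members; others were picked after their values were seen. No genes were ranked by likeness of pattern, since 2 libraries give each gene 1 ratio.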

Additional observations from a re-analysis of the deposited data

How the results depend on the processing

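No member was called lower in replicate 2 under any of the 10 settings tried. That count could not rise at 1.5-fold or under changes of the read filter, and the direction was known when the members were chosen. The count of detected members was 9 at 0.5 TPM and 8 at 2 TPM. The count of members higher, a direction added after the values were seen, was 8 with TMM factors, size factors, TPM or posterior mean counts, 7 with spike-in scaling, 6 of the 7 members with a mean of 100 or more reads, and 3 at 1.5-fold. The median log2 ratio of the members was 0.42 and came to 0.49 with deposited TPM and 0.48 with a pseudocount of 0.1 on TPM; Vwf then had -0.12. At 1.5-fold, counts were 4 platelet receptors higher, 4 granule and cytoskeleton genes higher, 0 transcription factors lower and 2 erythroid genes lower; at 1.1-fold, 5 transcription factors and 14 erythroid genes were lower. At a mean of 100 or more reads, 4 receptors were higher and 9 hepatocyte genes lower. Taking 1 library alone, the median member level was 7.84 to 9.67 TPM. Of 120 further comparisons of single values, 111 moved by less than their error, but many of these could not have moved. The 18 of member levels set 1 library against a mean that contains it, and changes of the read filter leave each ratio as it was. FPKM gives the same pair folds apart from rounding. Those that moved by more were 5 of 18 transcript shares, 2 of 14 pair folds and 2 of 70 member ratios. The posterior mean TPM changed Itga2b over Itgb3 from 1.81 to 1.98. Gp1ba and Gp9 have the fewest reads of the 9 members and the widest percentile range among genes of like read count. No paired analysis was possible because there is 1 group.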
